A study of Mus musculus with 21 samples.

Results

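The genes described are those that encode the proteins of the cytosolic ribosome in a mouse lymphoid progenitor (LP) line. They were chosen by symbol: every protein-coding gene named Rpl, Rps, Rpla, Rpsa, Rplp or Rpsp with a number, or Rpsa, leaving out the S6 kinases (Rps6k genes) and hyphenated symbols. The rule found 86 of the 55421 genes in the expression table, of which 52 are named for the large (60S) subunit and 33 for the small (40S) subunit. The remaining 1, *Rps19bp1*, encodes a protein that binds Rps19 and is not itself a ribosomal protein. Conversely, *Fau* and *Rack1*, which encode ribosomal proteins under other names, fall outside the rule and are given with the translation factors. A further 299 noncoding rows (mostly pseudogenes) share such symbols, and their summed level was 259 to 344 CPM per library (CPM is a count of reads scaled so that every library has the same total).

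A ribosome is assembled in the nucleolus from ribosomal RNA and an equal number of copies of nearly every ribosomal protein, so that a cell makes the proteins in a fixed ratio. Many of their mRNAs begin with a C followed by an unbroken run of pyrimidines, the 5′ terminal oligopyrimidine (TOP) tract, through which mTOR signalling controls their translation together. In blood cells the family is known for Diamond-Blackfan anaemia, in which loss of 1 copy of one of several of these genes impairs red cell production, and for the 5S ribonucleoprotein (Rpl5 and Rpl11 with 5S rRNA), which restrains Mdm2 and so stabilises p53 when assembly fails.

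The study asked which genes depend on Lmo2, Zbtb1 and the ETO family co-repressors Cbfa2t3 and Cbfa2t2 in LPs that still hold T-lineage potential. The cells were 1 *Ebf1*-deficient LP line from C57BL6/J mice, grown on OP9 stromal cells with SCF, IL-7 and Flt3 ligand and transduced with Cas9-GFP, so every library, controls included, lacks Ebf1 function and carries Cas9. Retroviruses then delivered a pool of 2 sgRNAs, aimed at luciferase, which the cells lack, in sgControl and at the named gene in sgLmo2, sgZbtb1, sgCbfa2t2 and sgCbfa2t3. The GFP+hNGFR+ cells were sorted after 5 days for 3′ mRNA sequencing, with 3 replicates in each of the 5 conditions. The sorted cells are therefore a mixed pool of edited alleles and not a clone, and peaks from chromatin immunoprecipitation (ChIP-seq) of Zbtb1 and Cbfa2t3, each from 2 replicates of the same line, were used as well.

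Depth was 1705416 to 2095447 recovered reads per library, and the 3 sgControl libraries (at most 1727730) lay below the 12 others (at least 1751378), so depth ran with every comparison to sgControl and its part in the results was not tested. All 12 lymphoid progenitor markers were detected, summing to 2334 to 2750 CPM, whereas 15 OP9 stromal markers summed to 3.44 to 14.7 CPM with *Cav1*, *Dcn*, *Col3a1*, *Postn* and *Lum* at 0 in every library. The myeloid markers summed to 3.83 to 30.3 CPM, with *Elane* and *Csf3r* at 0 in every library, and the erythroid markers to at most 3.42 CPM. The 3′ reads were not set against the edited sites and do not test for loss of protein: *Zbtb1* mRNA was at 94.4 to 113 CPM in the sgZbtb1 libraries against 55.7 to 66.6 CPM in sgControl, and *Cbfa2t3* mRNA at 340 to 364 CPM in sgCbfa2t3 against 172 to 210 CPM. *Cbfa2t2* mRNA was at 25.5, 23.9 and 16.4 CPM in sgCbfa2t2 against 11.0, 12.2 and 12.3 CPM in sgControl, likewise without overlap, on few reads. These targeted mRNAs were thus higher where the label says the gene was targeted, so directions below are those of the libraries labelled sgZbtb1 and so on. *Lmo2* averaged 16.7 CPM, at 8.48, 24.4 and 15.9 CPM in sgLmo2 and 23.2, 16.2 and 15.8 CPM in sgControl, which overlap. *Ebf1* 3′ reads were likewise present in every library and check nothing about the deletion. Replicate 2 of sgCbfa2t2 stood apart for the ribosomal protein genes: the median log2 deviation of the 83 tested members from their own means was 0.23 there and at most 0.073 in any other library. It also had the lowest share of reads from mitochondrially encoded genes (5.03%, where the 15 libraries ran to 6.89%) and from the 10 highest genes (15.3%, up to 18.2% elsewhere). Its main results are given with and without it.

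For 7 of the 8 members that passed a test below, the 30 bases around the transcription start are shown first, because the TOP tract lies there. The windows are from RefSeq on GRCm38, 15 bases before to 15 from the start, 5′ to 3′ on the gene's strand, and capitals mark the pyrimidine run that covers the start. The genes are *Rpl13* (chr8:123102335-123102364, plus strand), *Rpl14* (chr9:120571502-120571531, plus), *Rpl36al* (chr12:69184053-69184082, minus), *Rpl37a* (chr1:72711245-72711274, plus), *Rpl39* (chrX:37085208-37085237, minus), *Rps15* (chr10:80292416-80292445, plus) and *Rps27* (chr3:90213634-90213663, minus). The other, *Rpl8*, had no entry.
Rpl13: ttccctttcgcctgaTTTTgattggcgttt
Rpl14: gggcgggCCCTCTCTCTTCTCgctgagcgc
Rpl36al: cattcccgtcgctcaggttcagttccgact
Rpl37a: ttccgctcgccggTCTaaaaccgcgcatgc
Rpl39: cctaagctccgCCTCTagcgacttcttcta
Rps15: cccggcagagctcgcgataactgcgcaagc
Rps27: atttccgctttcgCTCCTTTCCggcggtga
The annotated start of *Rpl14* sits inside a run of 14 pyrimidines and that of *Rps27* inside a run of 9. By contrast the starts of *Rpl36al* and *Rps15* fell on a purine, so no run covered them. These are the positions as annotated, and a run a few bases from the annotated start is not counted.

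Over the family, 66 of 86 members matched a promoter entry, giving 78 windows of 300 bases out of 32851 for all genes. A C at the start followed by at least 4 more pyrimidines was found in 14 member windows (17.9%), compared with 2.51% of all promoters and 2.36% of those of tested genes. A run of at least 5 pyrimidines covering the start was present in 26.9% of member windows and 10.1% of all. The ETS core ACCGGAA (either strand) occurred in 20.5% of member windows, 3.72% of all promoters and 7.98% of those of tested genes, and the YY1 core AAGATGG in 15.4, 6.34 and 7.45%. TATAAA was found in 8.97% of member windows, fewer than of all promoters (13.6%) but more than of those of tested genes (6.42%). The Runx core TGTGGT was in 8.97, 16.8 and 12.7%.

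The family was among the most abundant in the cells. Its summed level was 7.51 to 8.82% of all reads per library, 35 of the 100 highest genes were members, and the median member averaged 702 CPM over the 15 libraries against 25.4 CPM for all 11554 tested genes. Reads come from transcript 3′ ends and the values were not divided by length, so each level is a share of 3′ reads. A mean above 1000 CPM was reached by 28 members and one above 100 CPM by 75.

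The highest members spanned both subunits. *Rplp1*, an acidic protein of the stalk that recruits elongation factors, led with a mean of 4378 CPM and a range of 4114 to 4701 CPM over the 15 libraries. *Rps26*, which lies at the mRNA exit channel, followed with 3538 CPM, *Rps14*, a core 40S protein, with 3408 CPM, and *Rps20*, of the 40S head, with 2968 CPM. Others among the highest were *Rpl32* with 2475 CPM, *Rpl4* with 2387 CPM, *Rps24* with 2321 CPM and *Rps12* with 2082 CPM, all structural proteins of their subunit. Their order within neighbouring pairs is finer than the spread between libraries, as for *Rps26* (3290 to 3835 CPM) and *Rps14* (3184 to 3851 CPM).

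**Figure D1:**
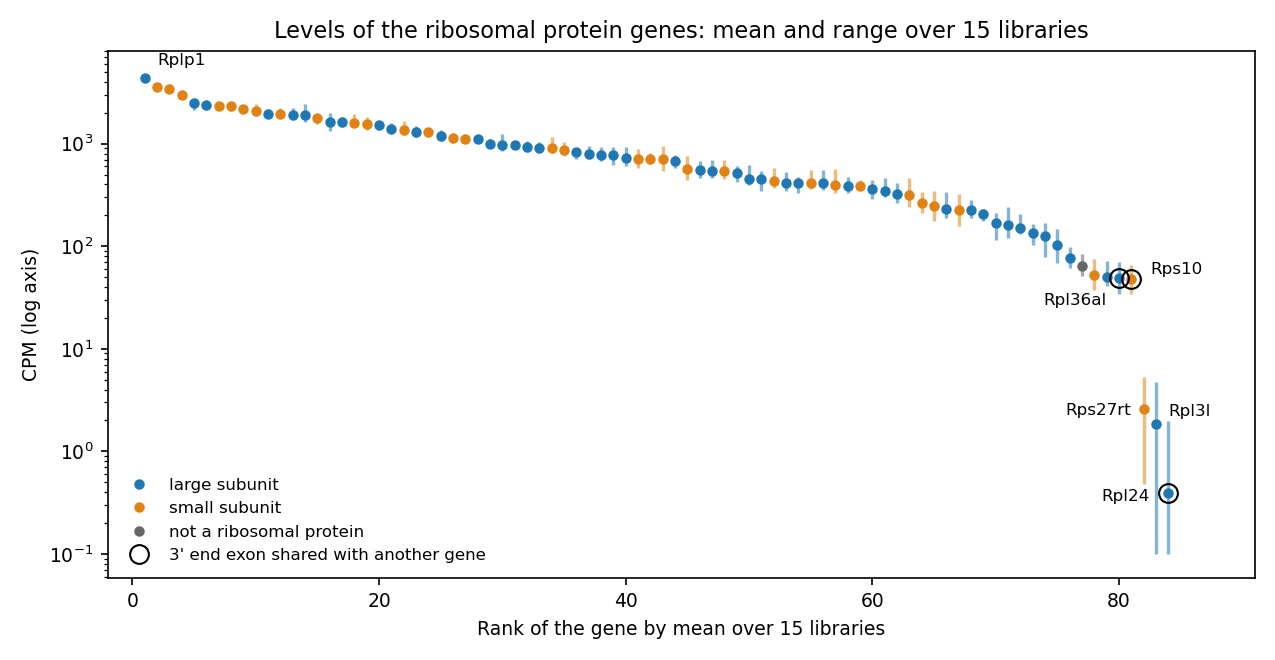
Mean level of each ribosomal protein gene over 15 libraries (CPM, log axis) against its rank, with vertical lines from the lowest to the highest library (drawn to 0.1 where the lowest is 0), colour for the subunit and rings for the 3 members that share a last exon with another gene. Of the 86 members 75 lie above 100 CPM, the ringed ones are all at the low end, and the 2 listed at 0 are not drawn.

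At the other end, several proteins that every ribosome needs were listed at low levels. *Rps6*, the S6 kinase substrate, averaged 52.8 CPM, *Rpl10a* 50.4 CPM, *Rps10* 48.3 CPM and *Rpl15* 77.6 CPM, against the family median of 702 CPM. *Rpl24* was under the filter with a mean of 0.39 CPM, as were *Rpl39l* and *Rpl10l*, both listed at 0 in all 15 libraries. In the GENCODE vM21 annotation, *Rpl24*, *Rps10* and *Rpl36al* were the 3 members whose last exon is shared on the same strand with another annotated gene (Gm28037, a readthrough of *Rps10* into *Nudt3*, and Gm49383), and all 3 were among the 20 lowest. None of the 20 highest was. Gm28037 and Gm49383 were themselves listed at 0 in every library. The part of shared annotation in these low values was not tested.

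Near-identical copies elsewhere in the genome were found for both high and low members. A copy with at least 98% identity over at least 75 bases, the read length, was found for the 3′ end of 53 of 86 members, including 13 of the 20 lowest and 10 of the 20 highest. The median number of other loci was 2 for the 20 lowest and 0.5 for the 20 highest. The part of such copies in the levels was not tested. Members with a copy had a median level of 551 CPM and those without one 733 CPM. For *Rpl13* and *Rps27* a copy covered the whole 300-base end, so reads of these genes and of their pseudogenes could not all be told apart, and their levels are uncertain to that extent.

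The coefficient of variation (CV) over all 15 libraries had a median of 10.1% for the members and 22.7% for all tested genes. Within conditions it was 8.70%, of which counting error alone would give 2.75%. At the levels of the middle members (320 to 1379 CPM) it was 8.42% for 41 members, with a counting error of 2.75%, and 6.57% for 371 other genes, with a counting error of 3.35%. Replicates of the same condition were often shifted as a group: the share of members above their own condition mean ran from 16.9% (replicate 3 of sgCbfa2t2) to 86.7% (replicate 1 of sgCbfa2t3), while for the 371 other genes it stayed between 38.3% and 57.7%. The members are therefore not independent observations of a condition.

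Summed over members, the sgControl libraries held 7.51, 7.53 and 7.83% of reads and those of sgLmo2 7.80, 7.79 and 7.86%. The libraries labelled sgZbtb1 held 7.90, 7.78 and 8.18%. The sum was 8.30, 8.82 and 8.03% in sgCbfa2t2 and 8.27, 7.96 and 7.59% in sgCbfa2t3. All 3 sgCbfa2t2 libraries were above all 3 sgControl libraries, with means of 8.39% ± 0.40 and 7.62% ± 0.18 (SD, n = 3), whereas the other conditions overlapped sgControl. Without replicate 2 the sgCbfa2t2 mean was 8.17%. Under median-of-ratios or TMM scaling the sgZbtb1 libraries (7.83 to 8.35% and 7.82 to 8.36%) also lay above all of sgControl (at most 7.79% and 7.75%). No test was run on the sum, since it adds up members whose values move together within a library. The ratio of large to small subunit reads was nearly constant, at 1.050 to 1.095 in the 15 libraries.

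**Figure D2:**
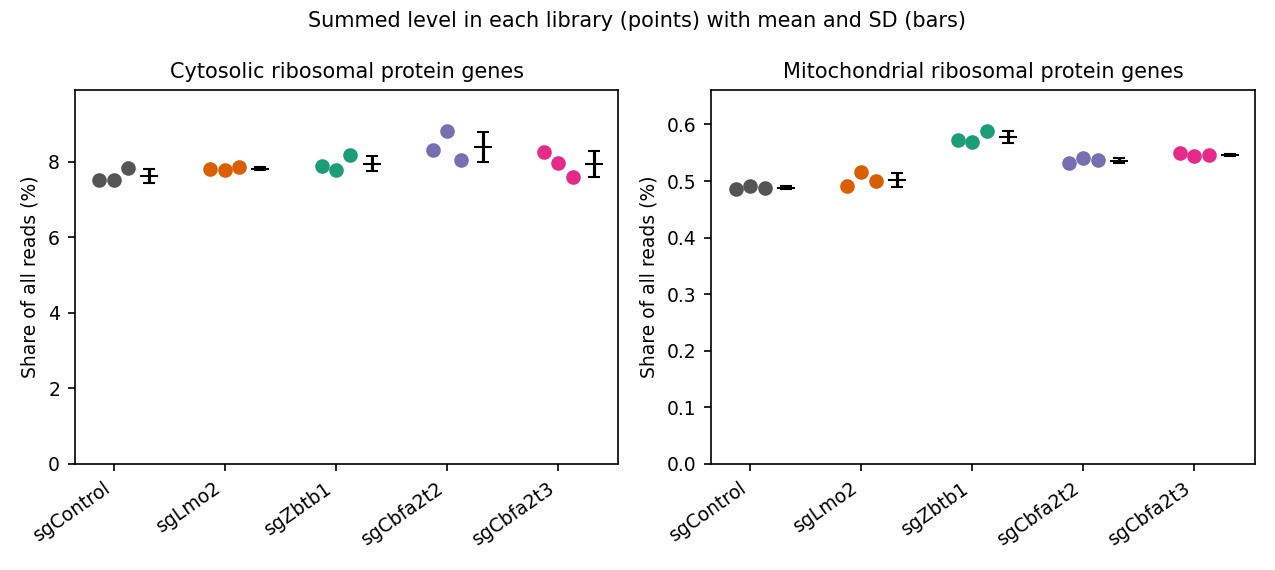
Summed level of the cytosolic (left) and mitochondrial (right) ribosomal protein genes as a share of all reads (percent), 1 point per library with the mean and SD of each condition beside them. On the left the sgCbfa2t2 points (8.03 to 8.82%) all lie above the sgControl points (7.51 to 7.83%), and on the right the sgZbtb1 points lie above all others.

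By gene, the mean was highest in sgCbfa2t2 for 60 of 83 tested members (72.3%), compared with 18.4% of all tested genes, and without replicate 2 of sgCbfa2t2 for 32 (38.6%, compared with 19.0%). It was lowest in sgControl for 35 members (42.2%, against 20.2% of all genes) and in sgZbtb1 for another 35 (against 27.8%). The single highest library was replicate 2 of sgCbfa2t2 for 54 members, and the single lowest was replicate 3 of sgCbfa2t3 for 20. Extreme libraries were not counted over all genes. In replicate 2 of sgCbfa2t2 the median deviation from a member's own mean was 0.089 on the log2 scale for the 28 members over 1000 CPM and 0.36 for the 47 members between 100 and 1000 CPM, so the shift was not even across the family. The 4 comparisons with sgControl below share its 3 libraries.

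In sgZbtb1, 4 of 83 tested members rose and none fell at an adjusted p under 0.05 (4.82%, where 4.79% of all 11554 genes were called, 1.85% higher and 2.94% lower). Against the 9 other gene-targeting libraries in place of sgControl, 1 was higher and 6 were lower with a median of -0.078, where 501 of 11554 genes were called. Those 9 include the 3 sgCbfa2t2 libraries, whose mean was the highest of the 5 conditions for 60 of the 83 members. Without the filter on low values *Rpl36al* alone was called, where 330 of 18602 genes were. The 4 that rose against sgControl all belong to the large subunit, as do 49 of the 83 tested members. The median log2 fold change was 0.0081 for large subunit members and 0.029 for small subunit members. The members' share called is near that of all genes, and their median log2 fold change was 0.029 against -0.028 for all genes, with 46 of 83 above 0. Leaving out 1 library moved the members' median between 0.0025 (without replicate 3 of sgZbtb1) and 0.053 (without its replicate 2). The share of reads from mitochondrially encoded genes was 6.48, 5.80 and 5.42% in sgZbtb1 and 6.83, 6.89 and 6.72% in sgControl, and its part in these values was not tested. Of the members 90% lay between -0.21 and 0.35 and of all genes between -0.96 and 0.57, but the median SE was 0.083 for members and 0.25 for all genes, most of which are far less abundant. At the levels of the middle members, the 371 other genes lay between -0.32 and 0.34 with a median of 0.074 and a median SE of 0.087, and the 41 members between -0.17 and 0.19 with a median of 0.0081 and a median SE of 0.083.

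*Rpl36al*, a retrocopy-derived paralogue of the E-site protein gene *Rpl36a*, had the largest fold change of the 4. Its level was 34.3, 35.9 and 36.9 CPM in sgControl and 57.5, 60.2 and 70.7 CPM in sgZbtb1. It was 48.6, 46.0 and 46.6 CPM in sgLmo2, 52.2, 45.3 and 53.1 CPM in sgCbfa2t2, and 47.7, 41.1 and 54.8 CPM in sgCbfa2t3. All 12 gene-targeting libraries were above all 3 sgControl libraries, and the 3 sgZbtb1 libraries were above the other 12. The log2 fold change in sgZbtb1 was 0.79 ± 0.18 (SE, limma, adjusted p = 0.0022). In the other conditions it was 0.48 in sgCbfa2t2 (adjusted p = 0.33), 0.40 in sgCbfa2t3 (adjusted p = 0.38) and 0.39 in sgLmo2 (adjusted p = 0.86), which did not pass. The gene rests on 59 to 144 reads per library, for a counting CV of 10.4%, and a full-length copy (*Rpl36a-ps3*) lies elsewhere.

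*Rpl13*, a large subunit protein, was at 1625, 1755 and 1871 CPM in sgControl and at 2022, 2411 and 2241 CPM in sgZbtb1. The other 9 libraries ran from 1640 to 2181 CPM. Its groups did not overlap between sgZbtb1 and sgControl, while replicate 3 of sgCbfa2t3 (2181 CPM) and replicate 3 of sgCbfa2t2 (2029 CPM) also reached the sgZbtb1 range. The log2 fold change was 0.34 ± 0.075 (adjusted p = 0.0018).

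*Rpl14* and *Rpl8* changed less. *Rpl14*, on the solvent side of the 60S subunit, was at 1459, 1516 and 1520 CPM in sgControl and 1683, 1801 and 1763 CPM in sgZbtb1 (log2 fold change 0.22 ± 0.068, adjusted p = 0.039). *Rpl8*, which contacts the peptidyl transferase centre, was at 1405, 1362 and 1411 CPM and at 1552, 1625 and 1676 CPM (0.22 ± 0.066, adjusted p = 0.041). In both genes every sgZbtb1 library was above every sgControl library. Libraries of sgCbfa2t2 reached into the sgZbtb1 range for both, as did those of sgCbfa2t3 for *Rpl8*. These 2 calls were lost without any 1 of the sgControl libraries, and without replicate 2 or 3 of sgZbtb1. The called members then numbered 2, or 3 without replicate 3 of sgControl, where *Rpl32* was called. Calls over all 11554 genes fell too, from 554 to 459, 353 and 330 without replicate 1, 2 or 3 of sgControl in turn. They were 401 and 306 without replicate 2 or 3 of sgZbtb1 in turn.

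At an unadjusted p under 0.05 there were 18 members, 14 higher and 4 lower (21.7%, against 17.6% of all genes and, at the middle members' levels, 19.5% of members and 38.8% of other genes), and without any 1 of the sgControl libraries 11 to 13, where 15.5 to 16.5% of all genes were. Each of those counts is a smaller share of the 83 members. With the 4 called ones included, 14 members had all 3 sgZbtb1 libraries above all 3 of sgControl (10.1% of all genes), and 5 had them below (12.8%). Lower values included *Rpl41*, a very small basic protein of the subunit interface, with a log2 fold change of -0.26 (adjusted p = 0.12), *Rpl10* with -0.29 (adjusted p = 0.24) and *Rpl29* with -0.31 (adjusted p = 0.25). These 3 were chosen after their values were seen. By the study's own rule for changed genes (unadjusted p under 0.05, more than 2-fold, mean above 10), 0 members were called in any comparison, against 1.66% of all genes in sgZbtb1, 0.658% in sgCbfa2t3, 0.502% in sgCbfa2t2, 0.234% in sgLmo2 and 0.71% between sgZbtb1 and sgCbfa2t3. The same 4 members were called by edgeR and by DESeq2 on the recovered reads.

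**Figure D3:**
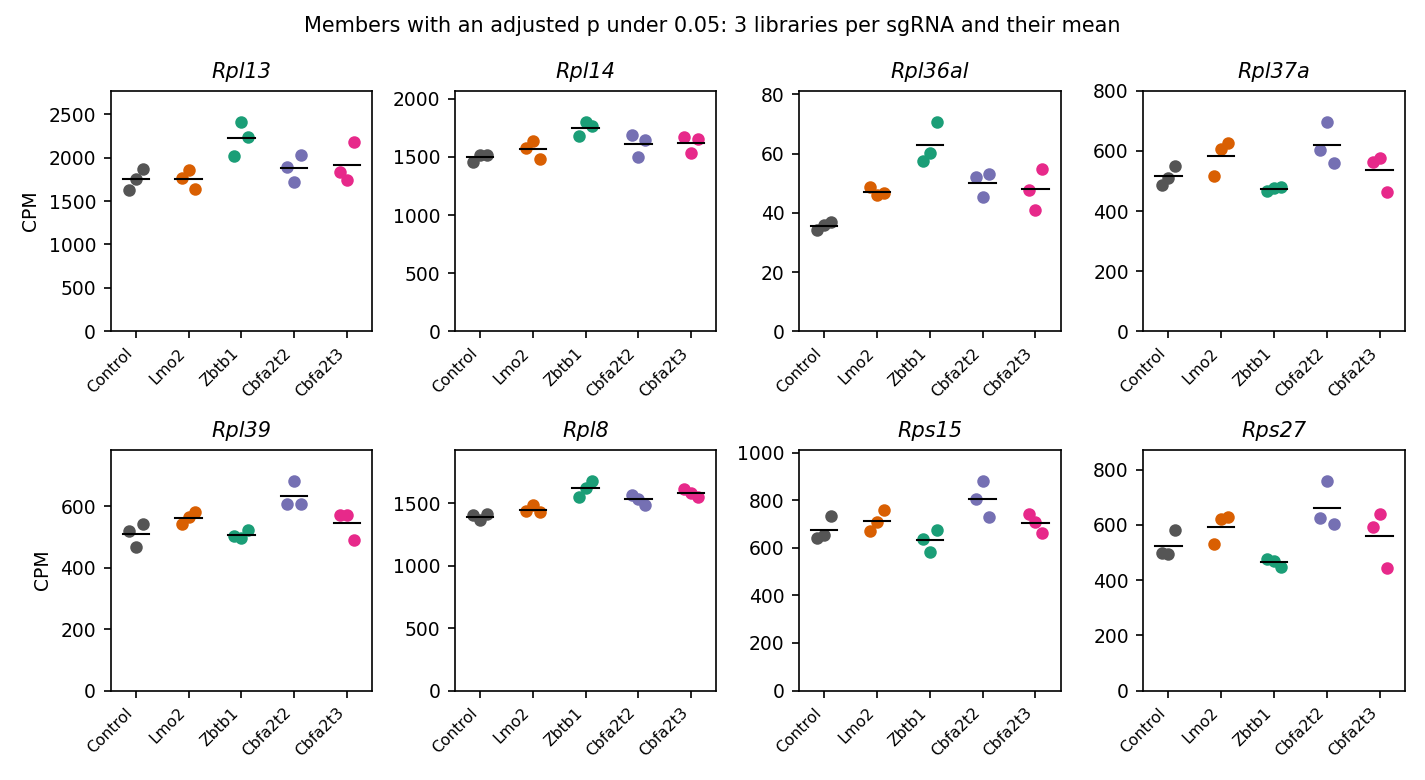
Level (CPM) in all 15 libraries of the 8 ribosomal protein genes that passed a test, with 3 points per condition and the mean as a line. The sgZbtb1 points are highest for Rpl36al, and for Rps27 and Rpl37a the sgCbfa2t2 points lie above and the sgZbtb1 points below those of sgControl.

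In sgCbfa2t2 no member passed (limma and edgeR, 0 of 83, where 0.147% of all genes were called, and 1 member, *Rpl39*, by DESeq2), yet most members had values above sgControl. The median log2 fold change was 0.14 against 0.0049 for all genes (at the middle members' levels, 0.16 for members and 0.038 for other genes), 81 of 83 members were above 0, and 33 members were at an unadjusted p under 0.05, all of them higher, compared with 9.56% of all genes in either direction and 4.44% higher. At the middle members' levels 48.8% of members and 16.4% of other genes were at such a p in either direction. Likewise 28 of 83 members had all 3 sgCbfa2t2 libraries above all 3 of sgControl (6.88% of all genes) and 0 had them below (6.85%). Small subunit members had a median of 0.19 with 18 of 33 at an unadjusted p under 0.05, and large subunit members 0.13 with 15 of 49. Without replicate 2 of sgCbfa2t2 the median was 0.11, with 73 of 83 above 0 and 16 members at an unadjusted p under 0.05 (6.71% of all genes), and 35 members had the remaining 2 libraries above all 3 of sgControl (42.2%, against 10.8% of all genes). Without replicate 3 of sgCbfa2t2 the median was 0.20, with 44 members at an unadjusted p under 0.05 (10.2% of all genes). Without replicate 1, 2 or 3 of sgControl in turn, 20, 17 and 37 members were at such a p (9.0, 8.3 and 8.0% of all genes). The mitochondrially encoded share was below all of sgControl in each targeted condition, at 5.95, 5.03 and 5.95% in sgCbfa2t2, 6.36, 6.09 and 6.11% in sgLmo2, and 6.02, 6.03 and 6.20% in sgCbfa2t3, and its part in these conditions was likewise not tested.

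The members with the lowest p in sgCbfa2t2 were mid-level genes. *Rpl39*, a small protein of the exit tunnel, was at 517, 467 and 541 CPM in sgControl and 608, 681 and 607 CPM in sgCbfa2t2 (0.31, adjusted p = 0.12). *Rps7*, a 40S assembly protein, was at 363, 394 and 392 CPM and at 534, 554 and 387 CPM (0.34, adjusted p = 0.15). *Rps27*, a zinc finger protein of the 40S platform, was at 498, 494 and 581 CPM and at 627, 759 and 602 CPM (0.33, adjusted p = 0.16). The groups did not overlap for *Rpl39* and *Rps27*, while for *Rps7* replicate 3 of sgCbfa2t2 lay within the sgControl range. Without that replicate *Rps7* was called.

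In sgCbfa2t3 no member passed with limma or edgeR (0.537% of all genes were called with limma), and *Rpl8* passed with DESeq2. The median was 0.060, 68 of 83 members were above 0, and 3 were at an unadjusted p under 0.05 (10.6% of all genes). These were *Rpl8* (log2 fold change 0.18, adjusted p = 0.26), *Rpl36al* (0.40, adjusted p = 0.38) and *Rpl7l1* (0.26, adjusted p = 0.44), a paralogue of *Rpl7* with a role in ribosome assembly. Without replicate 3 of sgCbfa2t3, the library where 20 members were lowest, the median was 0.10 with 77 of 83 above 0 and 10 members at an unadjusted p under 0.05, where 10.2% of all genes were. Without replicate 1 of sgCbfa2t3 the median was 0.019, with 50 of 83 above 0.

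In sgLmo2 no member passed with limma, edgeR or DESeq2, and 2 genes of all did with limma (0.0173%). The median was 0.048, with 72 of 83 above 0 and 3 at an unadjusted p under 0.05 (5.65% of all genes). That count was 10 without replicate 3 of sgControl (5.61% of all genes), 7 without replicate 1 of sgLmo2 (5.55%), 0 without its replicate 3 (5.70%), and 1 without replicate 1 or 2 of sgControl (5.58 and 5.36%). The 3 were *Rpl7a* (0.27, adjusted p = 0.76), of the 60S solvent side, *Rpl19* (0.33, adjusted p = 0.84), which forms a bridge between subunits, and *Rpl36al* (0.39, adjusted p = 0.86). *Rpl7a* was at 378, 351 and 383 CPM in sgControl and at 412, 436 and 499 CPM in sgLmo2, so the libraries did not overlap.

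Set directly against each other, sgZbtb1 and sgCbfa2t3 differed in no member with limma, edgeR or DESeq2 (1.13% of all genes were called with limma), and 5 were at an unadjusted p under 0.05 (10.0% of all genes). Without replicate 3 of sgCbfa2t3 these were 27, 4 higher and 23 lower (10.2% of all genes), and without its replicate 2 there were 0. The median log2 difference, sgZbtb1 over sgCbfa2t3, was -0.016, with 32 of 83 above 0. The lowest p belonged to *Rpl13* (0.22, adjusted p = 0.20), *Rps27* (-0.25, adjusted p = 0.27) and *Rpl36al* (0.39, adjusted p = 0.42). Without replicate 3 of sgCbfa2t3, *Rpl13* and *Rps27* were called.

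**Figure D4:**
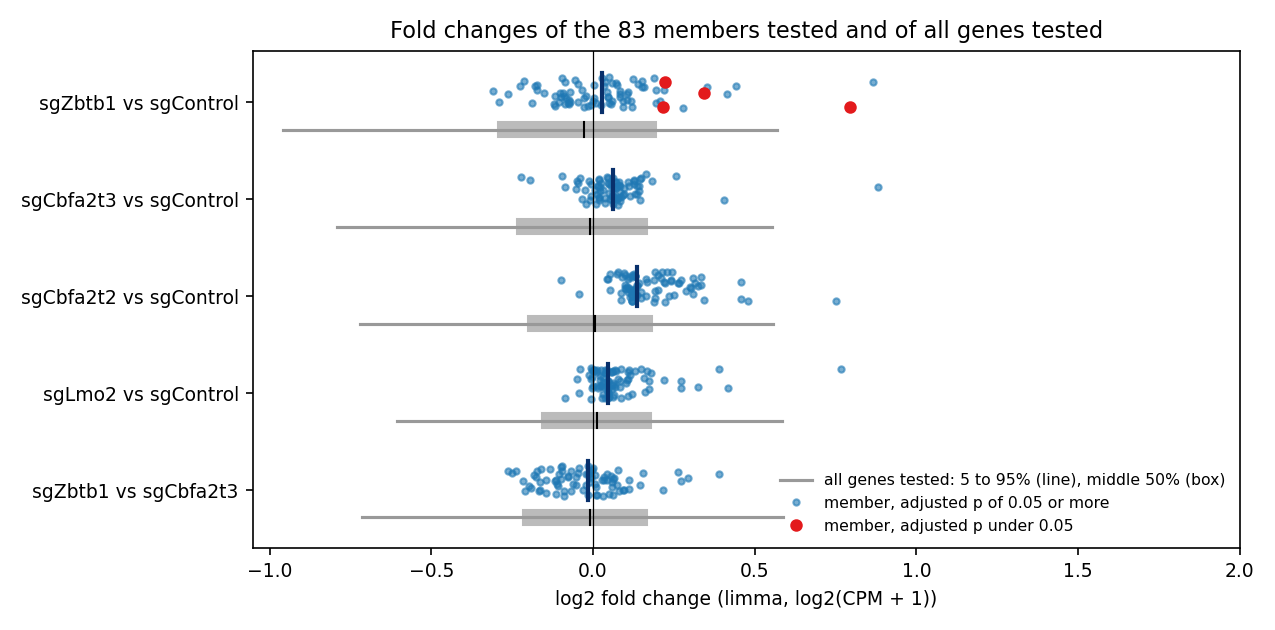
Log2 fold change of each tested ribosomal protein gene in each comparison (1 point per gene, red where the adjusted p is under 0.05, with the median as a bar), above a grey line for the middle 90% and a box for the middle 50% of all tested genes. Members spread less than all genes, most of which are less abundant, the sgCbfa2t2 points lie mostly above 0 (median 0.14), and the 4 red points are in sgZbtb1 (median 0.029).

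Asked whether a gene differed anywhere among the 5 conditions (moderated F test in limma), 6 of 83 members passed (7.23%, against 4.54% of all genes). They were *Rps27* (adjusted p = 0.0018), *Rpl13* (adjusted p = 0.0049), *Rpl37a* (adjusted p = 0.020), *Rpl36al* (adjusted p = 0.032), *Rpl39* (adjusted p = 0.038) and *Rps15* (adjusted p = 0.040). This count rests on few libraries: it was 1 without replicate 2 of sgZbtb1, 2 without its replicate 3, 3 without replicate 2 of sgControl or of sgCbfa2t2, 11 without replicate 3 of sgCbfa2t3 and 12 without replicate 3 of sgCbfa2t2. Of all 11554 genes, 525 were called with every library. Without replicate 2 or 3 of sgZbtb1 in turn, 364 and 338 were called. It was 433 without replicate 2 of sgControl and 477 without replicate 2 of sgCbfa2t2. It was 582 without replicate 3 of sgCbfa2t3 and 583 without replicate 3 of sgCbfa2t2. *Rps27* passed under all 20 alternatives, *Rpl13* failed under 2, *Rpl37a* under 4 and *Rpl36al* under 6, each only when a library was left out. *Rpl39* failed under 10 and *Rps15* under 11, both of them under median-of-ratios and TMM scaling, which left 4 called members.

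Apart from *Rpl13* and *Rpl36al*, these genes had their highest mean in sgCbfa2t2. *Rps27* was at 476, 471 and 446 CPM in sgZbtb1, below its 3 sgControl libraries (494 to 581 CPM), and at 602 to 759 CPM in sgCbfa2t2, above them. *Rpl37a*, a zinc-binding 60S protein, was at 487, 509 and 549 CPM in sgControl, at 467, 477 and 480 CPM in sgZbtb1, and at 604, 696 and 559 CPM in sgCbfa2t2. *Rps15*, of the 40S head near the decoding site, was at 641, 652 and 734 CPM in sgControl, at 638, 581 and 676 CPM in sgZbtb1, and at 804, 881 and 729 CPM in sgCbfa2t2. For *Rpl37a* the sgCbfa2t2 libraries were all above and the sgZbtb1 libraries all below those of sgControl, whereas for *Rps15* both groups overlapped sgControl. With limma none of *Rps27*, *Rpl37a* and *Rps15* passed in sgZbtb1 or sgCbfa2t2 against sgControl.

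For paralogue pairs, the level of the lesser copy was taken as a share of the pair. *Rps27l*, a p53-responsive relative of *Rps27*, made up 41.0% of its pair over all libraries, 40.9% ± 2.5 in sgControl and 47.4% ± 0.59 in sgZbtb1 (SD, n = 3). *Rps27l* itself was at 357, 371 and 357 CPM in sgControl and at 440, 415 and 399 CPM in sgZbtb1, without overlap (log2 fold change 0.21, adjusted p = 0.18). *Rpl36al* made up 4.99% of its pair with *Rpl36a*, 3.84% ± 0.37 in sgControl and 6.50% ± 0.20 in sgZbtb1, with 4.90, 4.77 and 4.91% in sgLmo2, sgCbfa2t2 and sgCbfa2t3. The share ran from 9.58 to 14.1% for *Rpl22l1*, which can stand in for *Rpl22*, and from 7.87 to 11.0% for *Rpl7l1*. The muscle paralogue *Rpl3l* held 0.24% of its pair, and the germline paralogues *Rpl10l* and *Rpl39l* were listed at 0. No test was run on the shares.

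**Figure D5:**
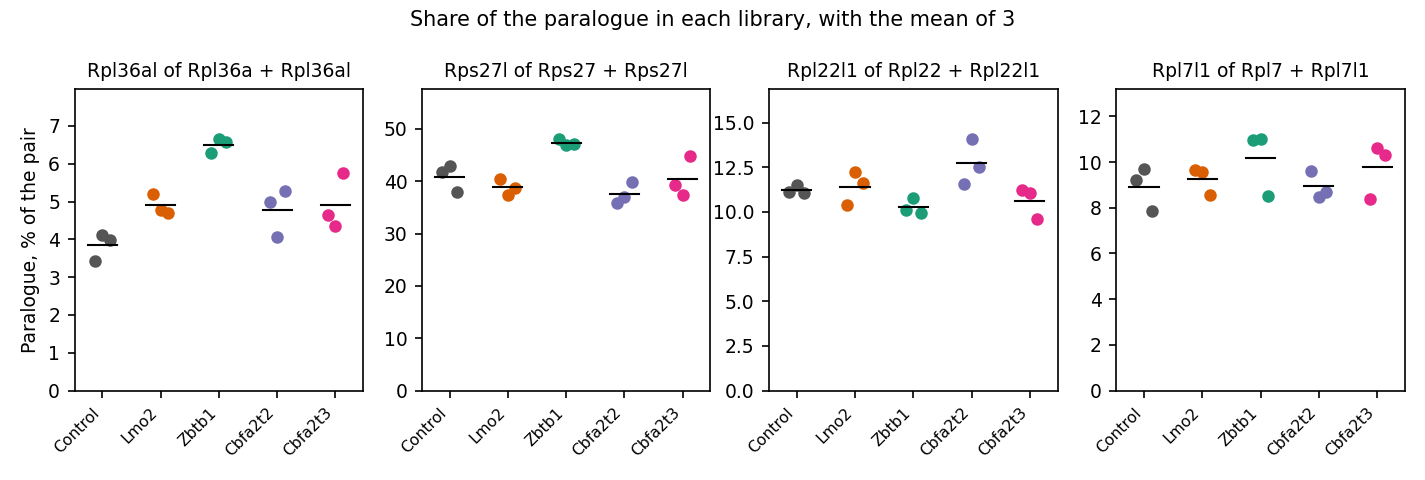
Share of each paralogue in the reads of its pair (percent) in all 15 libraries, 3 points per condition with the mean as a line. The share of Rps27l (35.9 to 48.0%) and that of Rpl36al (3.42 to 6.65%) are highest in the sgZbtb1 libraries.

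The 5S ribonucleoprotein genes did not pass in any comparison: in sgZbtb1 the log2 fold change was -0.046 for *Rpl5* (adjusted p = 0.89) and 0.060 for *Rpl11* (adjusted p = 0.71), and in sgCbfa2t2 0.21 (adjusted p = 0.54) and 0.11 (adjusted p = 0.65). *Rpl11* had one of the steadiest levels, 1320 to 1582 CPM over all libraries (CV 4.96%). Of the stalk genes in sgCbfa2t2, *Rplp0* was at 0.19 (adjusted p = 0.44), *Rplp1* at 0.11 and *Rplp2* at 0.086, and in sgZbtb1 they were at -0.088, 0.082 and -0.091. Among 22 members mutated in Diamond-Blackfan anaemia, 1 (*Rpl8*) rose in sgZbtb1 and the median was 0.046, and as in the whole family the share is near that of all genes. Members with the C-start pyrimidine run numbered 14 among those tested, of which 1 (*Rpl14*) rose, and those with an entry but no such run 49, of which 2 rose, too few to set the groups apart.

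ChIP-seq peaks of either factor were listed at a smaller share of these promoters than of other coding genes, a difference that was not tested. A Zbtb1 peak within 1 kb of the start was listed for 6 of 83 tested members (7.23%, against 20.3% of 10167 tested coding genes) and a Cbfa2t3 peak for 3 (3.61%, against 7.08%). On mm10, Zbtb1 peaks lay at *Rpl22* (chr4:152325734-152326104, score 83.6), *Rpl37* (chr15:5116243-5116613, score 54.4), *Rpl36al* (chr12:69183823-69184193, score 47.4), *Rplp0* (27.1), *Rps29* (19.2) and *Rps13* (17.1). Those of Cbfa2t3 lay at *Rpl41* (25.3), *Rps29* (24.2) and *Rpl3* (21.2). Among the members that passed a test, *Rpl36al* alone had such a peak, and *Rpl22*, with the strongest one, had a log2 fold change of 0.14 in sgZbtb1 (adjusted p = 0.31).

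The *Rpl36al* peak is centred 59 bases from the gene's start and spans the gap between it and *Mgat2*, which is transcribed in the opposite direction. The 73 bases of that gap are shown because the peak of the member with the largest called change covers them, on the gene's strand (chr12:69184084-69184156, minus, GRCm38), with matches to CCGCCC, the Sp/KLF core GGGCGG read from the other strand, in capitals.
Rpl36al upstream: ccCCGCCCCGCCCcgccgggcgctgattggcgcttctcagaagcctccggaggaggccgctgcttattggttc
The GGGCGG core is common, occurring in 60.3% of member windows, 35.7% of all promoters and 63.8% of those of tested genes, so a match distinguishes nothing.

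The rest of the translation machinery was set beside the family in the sgZbtb1 comparison. Of 40 ribosome biogenesis factors, 8 rose and none fell, where 1.85% of all genes rose and 2.94% fell, with a median of 0.29. *Dkc1*, the pseudouridine synthase of box H/ACA particles, was at 658, 675 and 755 CPM in sgControl and 874, 990 and 1059 CPM in sgZbtb1 (0.48, adjusted p = 1.2e-04). *Nop2*, an rRNA methyltransferase, was at 0.56 (adjusted p = 0.0072) and *Nop16*, a nucleolar 60S assembly factor, at 0.43 (adjusted p = 0.026). Every sgZbtb1 library was above every sgControl library for all 3.

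Of 29 translation factors and other TOP mRNAs, 2 rose and none fell (median 0.14): *Npm1*, which encodes nucleophosmin (0.25, adjusted p = 0.038), and *Pabpc1*, the cytoplasmic poly(A)-binding protein gene (0.21, adjusted p = 0.045). Of 24 genes for RNA polymerase I and 5S transcription, 1 rose, *Polr1a*, the largest polymerase I subunit (0.56, adjusted p = 0.022), and the median was 0.074. Mitochondrial ribosomal protein genes, whose products form the separate ribosome of that organelle, rose in 5 of 77 cases with a median of 0.23. Their sum was 5690 to 5893 CPM in sgZbtb1 against 4853 to 4904 CPM in sgControl. In sgLmo2 it was 4912 to 5152 CPM, in sgCbfa2t2 5310 to 5403 CPM and in sgCbfa2t3 5439 to 5488 CPM. Every targeted condition thus lay above sgControl, with sgZbtb1 highest. Of these named genes *Dkc1* kept its call under all 16 alternatives. The calls were lost under 3 for *Nop2*, 6 each for *Nop16*, *Npm1* and *Polr1a*, and 7 for *Pabpc1*, among them the loss of any 1 sgControl or sgZbtb1 library for *Pabpc1*. In the other 4 comparisons 0 genes of these 4 lists passed with limma. The cytosolic family, with its median of 0.029, thus lay below the biogenesis and mitochondrial lists in sgZbtb1 by these medians, and the difference between lists was not tested.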

How the data were processed

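Poly(A) RNA of sorted LPs was measured by QuantSeq 3′ sequencing (75-base single reads). The authors trimmed with fastp and aligned to mm10 with STAR (the counter and annotation are not given in the sources used here). The deposited values, named TPM by the authors, are CPM: they were not divided by length, and 99.92 to 99.97% came out as whole reads within 0.002 CPM. Floors of 3 reads were 1.43 to 1.76 CPM and cover counting error only. ChIP reads were aligned with Bowtie 1.1.1, and the deposited peak score is HOMER's for peaks found in both replicates.

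Genes with a mean above 1 CPM (11554) were fitted on log2(CPM + 1), a scale that understates the change of low genes, with limma 3.58.1 (R 4.3.3), all 15 libraries in 1 model. Adjusted p is Benjamini-Hochberg over all tested genes, two-sided, with 0.05 as the threshold. edgeR 4.0.16 and DESeq2 1.42.0 on the recovered reads, other scalings, filters, a replicate block and leaving out each library were alternatives, and the genes and members at like levels and some values without replicate 2 of sgCbfa2t2 were added after seeing the data; in sgZbtb1 edgeR called 569 genes and DESeq2 509 (limma 554), and DESeq2 left low genes without an adjusted p. Copies were searched with blastn 2.17.0. Scripts were tested on simulated data. The members, gene lists and tests were chosen with earlier results of these data known. Named genes were the 10 highest members (some are not reported here), paralogues, 5S and stalk members, up to 5 called per direction and comparison (or the 3 lowest p), members with a peak, and up to 3 called per list and direction. The study calls the replicates biological, but all came from 1 cell line, so p-values measure the spread between these samples. A row without an identifier (at most 5.86e-05% of reads) was left out.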

Additional observations from a re-analysis of the deposited data

Results flagged for a closer look

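*Rps27* and *Rpl37a* stood on opposite sides of sgControl under different sgRNAs. For *Rps27*, all 3 sgCbfa2t2 libraries (627, 759 and 602 CPM) were above, and all 3 sgZbtb1 libraries (476, 471 and 446 CPM) below, the 3 sgControl libraries (498, 494 and 581 CPM), and the mean in sgCbfa2t2 was 1.43 times that in sgZbtb1. For *Rpl37a* the sgCbfa2t2 libraries (604, 696 and 559 CPM) were likewise above and the sgZbtb1 libraries (467, 477 and 480 CPM) below those of sgControl (487, 509 and 549 CPM), with a ratio of means of 1.31. The difference between sgCbfa2t2 and sgZbtb1 was not tested on its own, though both genes passed the test for any difference among the 5 conditions (limma, adjusted p = 0.0018 for *Rps27* and 0.020 for *Rpl37a*). Without replicate 2 of sgCbfa2t2, the highest of its 3 libraries for both genes, the ratios were 1.32 and 1.22, and *Rpl37a* no longer passed that test (adjusted p = 0.10), as it did not without any 1 of the sgZbtb1 libraries, while the adjusted p of *Rps27* stayed between 9.5e-05 and 0.021 over all libraries left out.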

How the results depend on the processing

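No called gene named in the report changed direction. Called members in the report numbered 4 in sgZbtb1, 0 in each other comparison and 6 for any difference. In sgZbtb1, *Rpl36al* and *Rpl13* each lost its call under 1 of 16 alternatives (*Rpl36al* against the 9 other gene-targeting libraries, *Rpl13* without a filter), and *Rpl14* and *Rpl8* under 7. The count of called members in sgZbtb1 was 1 without a filter, where 330 of 18602 genes were called. It was 7 against the 9 other gene-targeting libraries (1 higher, 6 lower), where 501 of 11554 genes were called. It was 1 by DESeq2 in sgCbfa2t3 and in sgCbfa2t2. Against the 9 other libraries the median log2 fold change was -0.078 in sgZbtb1, -0.027 in sgCbfa2t3 and -0.039 in sgLmo2, below 0 where against sgControl all 3 were above it. Leaving out each library in turn, the counts ran from 2 to 4 in sgZbtb1, 0 to 1 in sgCbfa2t2, 0 to 2 between sgZbtb1 and sgCbfa2t3, and 1 to 12 for any difference, and the median between sgZbtb1 and sgCbfa2t3 from -0.091 to 0.016, on both sides of 0. Over all 11554 genes these counts ran from 306 to 459, 2 to 26, 86 to 107, and 338 to 583. Without the 5 most abundant members the sums were 6.00, 6.19, 6.23, 6.64 and 6.27% in sgControl, sgLmo2, sgZbtb1, sgCbfa2t2 and sgCbfa2t3, and under both other scalings that of sgLmo2 was 7.73%. Members with a Zbtb1 peak numbered 13 at any distance (29.7% of tested coding genes) and 3 at a score of at least 30 (10.7%), and with a Cbfa2t3 peak 6 within 10 kb (13.8%), 11 at any distance (22.7%) and 0 at that score (2.91%). Same-numbered libraries did not deviate together (mean r 0.028, against -0.014 for different numbers), so replicates were not taken as paired. A replicate block called 13 members for any difference, where 718 of 11554 genes were called, and 1 in sgCbfa2t2 (*Rpl39*). Over all genes, the calls were 330 without a filter and 554 with it in sgZbtb1, 24 and 62 in sgCbfa2t3, 0 and 17 in sgCbfa2t2, and 80 and 130 between sgZbtb1 and sgCbfa2t3, and a block gave 36 in sgCbfa2t2 and 14 in sgLmo2 (2 without it). The causes were not tested. Genes listed near 1 CPM rest on a few reads, which limits the precision for *Rps27rt* and *Rpl3l*.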
